A study of Mus musculus with 20 samples.

Results

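The 10 transcripts described here are products of neutrophils and monocytes, measured in mouse prostate tumor cells that had been sorted away from leukocytes. They were given as a list of symbols (S100a8, S100a9, Il1b, Ngp, Camp, Ltf, Lyz2, Cd14, Mmp8 and Retnlg), and all 10 were found among the 17104 named genes of the series and listed in each of its 3 tables. The members were chosen by name with the Resist vs. Naive values (log2 differences between these libraries) known, so those values are given below as a description without a test. The question put to the data was whether Il1b followed granule genes such as S100a8 from library to library, as RNA carried over from myeloid cells would.

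The tumor cells were MycCaP-Bo, a bone-selected subline of MycCaP, an androgen-dependent line from a Myc-driven mouse prostate tumor, that carried the near-infrared fluorescent protein iRFP. Every mouse, aged 4 to 6 weeks, had received 400000 of these cells into the heart 7 days before treatment began. Bone lesions were dissociated and cells negative for the pan-leukocyte protein CD45 and positive for iRFP were sorted, with the cells of 3 mice pooled in each of the 20 libraries. Naive cells (5 libraries) came from vehicle-treated mice and Resist cells (5 libraries) from mice given the androgen receptor antagonist enzalutamide by mouth at 30 mg per kg for 18 days. Resist-Mac cells (5 libraries) came from mice with the same enzalutamide course that also received clodronate liposomes, which deplete phagocytes, over the last 4 days. The liposomes were injected into a vein at 1 mg per mouse per dose. Naive-Mac cells (5 libraries) came from vehicle-treated mice given clodronate liposomes for 4 days. All groups rest on 1 injected cell line, and a library is a pool and not an animal.

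Neutrophils are made in the bone marrow and fill their granules in stages. Primary granules carry Mpo and Elane, secondary granules carry lactoferrin (Ltf), cathelicidin (Camp) and the neutrophilic granule protein Ngp, and late-stage cells make the collagenase Mmp8 and the resistin-like protein Retnlg. S100a8 and S100a9 encode the partner subunits of calprotectin, an abundant cytosolic protein of neutrophils and monocytes, and Lyz2 encodes lysozyme of neutrophils, monocytes and macrophages. Cd14 is a co-receptor for bacterial lipopolysaccharide on monocytes and macrophages, where its engagement of Toll-like receptors turns on NF-kB. Il1b encodes interleukin-1 beta, one of the cytokines that NF-kB induces, which myeloid cells make in quantity and which some epithelial cells can make too. RNA that comes from a single kind of source cell enters a library with its transcripts in a fixed ratio.

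Nearly that fixed ratio was kept below by S100a8, S100a9, Ngp, Camp, Retnlg and Lyz2, among others, and not by Il1b. The upstream sequences of 4 of the 10 genes (S100a8, S100a9, Ngp and Il1b) are shown as examples. Each is the 250 bases before the gene's first base, 5′ to 3′ on the gene's strand, from RefSeq on build GRCm38.p6. This build differs from the one named in the submitters' notes (mm9). Capitals mark matches to the C/EBP consensus (TTNNGNAA) and to the TATA box (TATAAA), searched on both strands.
S100a8, chr3:90668821-90669070, plus strand: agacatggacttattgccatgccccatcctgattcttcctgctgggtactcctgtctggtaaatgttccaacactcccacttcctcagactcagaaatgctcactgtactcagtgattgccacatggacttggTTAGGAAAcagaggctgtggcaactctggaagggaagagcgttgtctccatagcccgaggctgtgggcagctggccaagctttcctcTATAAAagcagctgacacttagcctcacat
S100a9, chr3:90695722-90695971, minus strand: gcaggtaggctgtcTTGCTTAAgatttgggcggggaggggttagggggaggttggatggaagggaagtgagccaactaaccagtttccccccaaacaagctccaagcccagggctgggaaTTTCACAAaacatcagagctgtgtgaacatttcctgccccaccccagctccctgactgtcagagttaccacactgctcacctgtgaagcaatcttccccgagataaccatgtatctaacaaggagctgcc
Ngp, chr9:110419558-110419807, plus strand: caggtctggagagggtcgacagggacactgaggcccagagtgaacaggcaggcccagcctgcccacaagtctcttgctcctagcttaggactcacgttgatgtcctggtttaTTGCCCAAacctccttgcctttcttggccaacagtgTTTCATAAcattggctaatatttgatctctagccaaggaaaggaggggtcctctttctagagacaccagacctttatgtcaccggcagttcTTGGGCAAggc
Il1b, chr2:129371140-129371389, minus strand: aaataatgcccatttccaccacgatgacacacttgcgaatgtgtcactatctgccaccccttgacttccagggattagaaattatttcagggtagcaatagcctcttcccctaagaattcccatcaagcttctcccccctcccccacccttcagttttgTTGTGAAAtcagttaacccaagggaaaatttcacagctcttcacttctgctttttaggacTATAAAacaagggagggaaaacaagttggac
C/EBP factors are the main regulators of granule genes. S100a8 held 1 C/EBP match, S100a9 2, Ngp 3 and Il1b 1, and 36.8% of 32851 RefSeq promoter windows of this length held at least 1. A TATA box began 30 bases before the start of S100a8 and 31 bases before that of Il1b, and was found in 12.4% of all windows. Of 2 further motifs searched, PU.1 (GAGGAA, in 23.3% of windows) matched S100a8 alone among the 4, and NF-kB (GGG and CC with 5 bases between them, in 45.8% of windows) matched none of them. These are matches of letters only. A promoter window was found for 9 of the 10 genes. Of those not shown, Camp held 0 matches to each of these motifs. Ltf held 2 C/EBP, 1 PU.1 and 4 NF-kB matches, and Mmp8 held 2 C/EBP matches and 1 PU.1 match. Retnlg and Lyz2 held 1 C/EBP match each. In the RefSeq order S100a8 and S100a9 are neighbours, as are Lyz2 and its close copy Lyz1, and the antisense gene Il1bos overlaps Il1b.

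All values are FPKM, fragment counts scaled to transcript length and to the mapped total of the library, so levels can be compared between genes. No read counts were used and the depth of each library is unknown. The 10 genes together took from 0.00749% of all FPKM in Naive-Mac replicate 2 to 1.36% in Resist-Mac replicate 1. S100a8 and S100a9 made up between 59.8% and 74.3% of the 10-gene sum in every library. In the Naive group the share of all FPKM ran from 0.0391% to 0.26%, and in the Resist group from 0.013% to 0.135%.

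**Figure D1:**
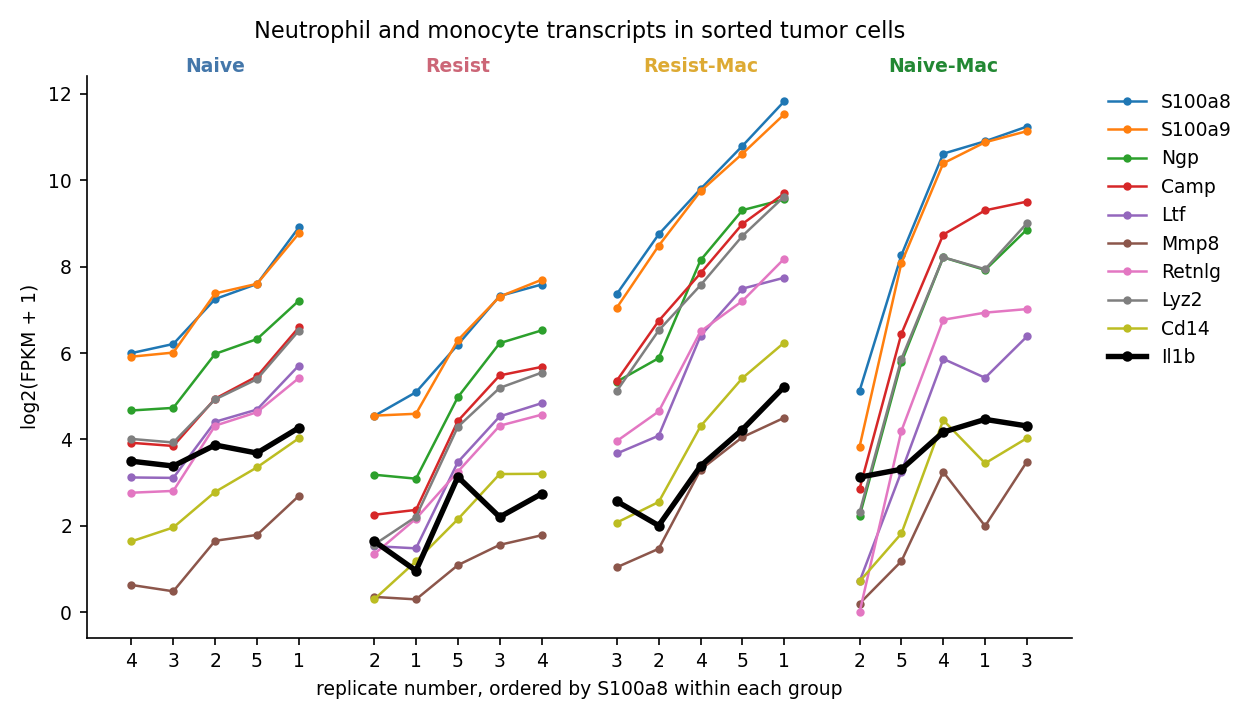
Level of each of the 10 genes, as log2(FPKM + 1), in the 20 libraries, ordered within each group by S100a8 and named by replicate number on the horizontal axis. Lines join the libraries of a group and Il1b is drawn thick in black: the other 9 lines climb together, while the Il1b line is flatter and crosses them, as in Naive-Mac replicate 2, where it lies above all but S100a8 and S100a9.

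S100a8 (Entrez 20201), the more abundant calprotectin gene in most libraries, was measured at 479.6, 151, 73.1, 63.0 and 193 FPKM in Naive replicates 1 to 5 and at 33.2, 22.3, 159, 191 and 72.2 FPKM in Resist replicates 1 to 5. It was at 3636, 429, 164, 889 and 1776 FPKM in Resist-Mac and at 1914, 33.9, 2423, 1568 and 307 FPKM in Naive-Mac. The highest and lowest libraries of a group thus differed 7.61-fold in Naive, 8.57-fold in Resist, 22.1-fold in Resist-Mac and 71.5-fold in Naive-Mac, and all 4 groups overlapped one another. Naive-Mac replicate 2 stood far below the other Naive-Mac libraries and within the Resist range.

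S100a9 (Entrez 20202), its partner, read 435, 166, 63.5, 59.4 and 193 FPKM in Naive and 23.2, 22.4, 157, 206 and 77.8 FPKM in Resist. It read 2952, 358, 132, 859 and 1567 FPKM in Resist-Mac and 1884, 13.2, 2252, 1344 and 271 FPKM in Naive-Mac. The libraries fell in the same order as for S100a8 within all 4 groups. S100a9 was between 69.9% and 109.5% of S100a8 in 19 libraries and 39.1% of it in Naive-Mac replicate 2.

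Ngp (Entrez 18054), the secondary granule gene with the highest level in the Naive and Resist groups, read 147, 62.2, 25.6, 24.5 and 79.1 FPKM in Naive and 7.53, 8.09, 74.0, 91.0 and 30.5 FPKM in Resist. It had a median of 283 FPKM in Resist-Mac (39.5 to 753) and 242 FPKM in Naive-Mac (3.67 to 464). Camp (Entrez 12796) had medians of 29.8, 20.5, 230 and 427 FPKM in Naive, Resist, Resist-Mac and Naive-Mac, and Ltf (Entrez 17002) of 20.3, 10.1, 83.4 and 42.0 FPKM. In all 3 genes the lowest Naive-Mac library was replicate 2, and Camp there was 6.24 FPKM against 86.3 to 726 FPKM in the other 4.

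The late-stage genes were lower. Mmp8 (Entrez 17394) ranged from 0.4 to 5.47 FPKM in Naive, 0.23 to 2.44 FPKM in Resist, 1.06 to 21.7 FPKM in Resist-Mac and 0.15 to 10.2 FPKM in Naive-Mac. Retnlg (Entrez 245195) ranged from 5.81 to 41.9 FPKM in Naive, 1.54 to 22.8 FPKM in Resist and 14.6 to 290.0 FPKM in Resist-Mac. In Naive-Mac it was 121, 129, 108 and 17.4 FPKM in replicates 1, 3, 4 and 5 and was listed at 0 in replicate 2. The Naive-Mac table also lists the epithelial genes Krt18 and Cdh1 at 0 in all 5 libraries, so a listed 0 is not taken here as an absent transcript.

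Lyz2 (Entrez 17105) read 90.7, 29.4, 14.2, 15.1 and 41.1 FPKM in Naive and 3.63, 1.96, 35.6, 45.7 and 18.6 FPKM in Resist, with medians of 189 FPKM in Resist-Mac (33.9 to 788) and 245 FPKM in Naive-Mac (3.97 to 513). Lyz1, the close copy next to it, was at most 27.0 FPKM and highest in the same library as Lyz2, and how reads were split between these 2 genes is uncertain. Cd14 (Entrez 12475) read 15.3, 5.9, 2.9, 2.12 and 9.23 FPKM in Naive and 1.27, 0.23, 8.19, 8.23 and 3.45 FPKM in Resist. It read 74.7, 4.87, 3.22, 18.8 and 41.8 FPKM in Resist-Mac and 9.92, 0.64, 15.4, 20.8 and 2.54 FPKM in Naive-Mac. Lysozyme and Cd14, which monocytes share with neutrophils or carry themselves, thus had their peaks in the libraries where the granule genes peaked, except that Cd14 was highest in Naive-Mac replicate 4 and not 3.

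Il1b (Entrez 16176) read 18.3, 13.6, 9.45, 10.3 and 11.9 FPKM in Naive replicates 1 to 5 and 0.95, 2.13, 3.61, 5.69 and 7.78 FPKM in Resist replicates 1 to 5. It read 36.3, 3.02, 4.93, 9.45 and 17.8 FPKM in Resist-Mac and 21.1, 7.74, 18.9, 17.0 and 8.92 FPKM in Naive-Mac. All 5 Naive libraries lay above all 5 Resist libraries, and no other pair among the 4 groups was free of overlap. Its spread within a group was narrower than that of each other member in all groups. From lowest to highest it was 1.93-fold in Naive, 2.72-fold in Naive-Mac, 8.19-fold in Resist and 12.0-fold in Resist-Mac. The margin was small in Resist, where S100a8 spread 8.57-fold, while the next narrowest in Resist-Mac was Ltf at 18.1-fold. The overlapping antisense gene Il1bos was listed at no more than 0.12 FPKM. Il1a, the other IL-1 agonist gene, was at most 0.08 FPKM where listed, and Il1rn, the gene of the receptor antagonist, at most 1.39 FPKM.

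Within groups the 9 genes other than Il1b kept nearly the same order of libraries. Replicate 1 was highest in Naive and replicate 4 in Resist for all 9, and in Resist-Mac all 9 ran in the order of replicates 3, 2, 4, 5 and 1 from low to high. In Naive-Mac replicate 2 was lowest and replicate 5 next lowest for all 9. Il1b departed from this order in every group. It had replicate 2 above 5 in Naive, was highest in replicate 5 and not in 4 in Resist, was lowest in replicate 2 and not in 3 in Resist-Mac, and was highest in replicate 1 in Naive-Mac, where 8 of the 9 were highest in replicate 3 and Cd14 in 4.

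To follow the genes across libraries without using the differences between groups, each library's log2(FPKM + 1) was taken as its deviation from its group mean, and Pearson's r and Spearman's rho were computed over the 20 libraries, with p from 100000 permutations of the libraries within groups. The 36 pairs without Il1b had r from 0.894 to 0.995 (median 0.977) and the 9 pairs with Il1b had r from 0.739 to 0.833 (median 0.771). All 45 pairs had an adjusted permutation p under 0.05 (Benjamini-Hochberg over the 45 pairs). S100a8 and S100a9 had r = 0.994 and rho = 0.994, each with a permutation p of 1e-05, the smallest these permutations can give (adjusted permutation p = 1.25e-05 and 1.29e-05).

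Il1b and S100a8 had r = 0.759 (permutation p = 6e-05, adjusted 6.92e-05) and rho = 0.786 (permutation p = 9e-05, adjusted 0.000104). Without the 2 libraries farthest from the median in S100a8 (Naive-Mac replicate 2 and Resist-Mac replicate 3) r was 0.79. Of the 9875 genes listed in all tables with a mean of at least 1 FPKM, 157 had a higher r with S100a8 than Il1b had, among them all 8 other members, and the median gene had r = 0.0236. Cd14 was the member whose r with Il1b was highest (0.833) and Retnlg the one with the lowest (0.739).

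The labels put the Naive and Resist libraries in batch 1, the Resist-Mac libraries in batch 2 and the Naive-Mac libraries in batch 3, and each batch has its own table. Within batch 1 (10 libraries) Il1b and S100a8 had r = 0.688 (permutation p = 0.0493, adjusted 0.0516) and rho = 0.709 (permutation p = 0.0441, adjusted 0.0462). Leaving out the 2 libraries farthest from the median in S100a8 (Naive replicate 1 and Resist replicate 2) gave r = 0.605. Over the 9 pairs with Il1b in batch 1, r ran from 0.661 to 0.777 and 6 of the 9 had an adjusted permutation p under 0.05. With the 2 farthest libraries of each pair left out, these 9 pairs ran from 0.364 to 0.681, so the relation of Il1b to several granule genes in batch 1 rested on those libraries. The 36 other pairs ran from 0.911 to 0.999 over the 10 libraries of batch 1, and from 0.932 to 0.999 with the 2 farthest libraries of each pair left out. Batches 2 and 3 hold 5 libraries each, too few for a correlation.

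The slope of each gene on S100a8, both as log2 FPKM within groups, gives the size of the shared movement. A slope of 1 means that the gene doubles when S100a8 doubles. The 8 genes other than Il1b had slopes between 0.98 (Cd14) and 1.12 (S100a9 and Ltf), and their 95% intervals reached from 0.78 to 1.25. Il1b had a slope of 0.41 ± 0.10 (SE, 95% interval 0.20 to 0.62), so its interval ended below the lowest limit of the other 8. Without Naive-Mac replicate 2 the Il1b slope was 0.56 (95% interval 0.31 to 0.81), and the lowest limit of the other 8 was then 0.87 for Mmp8. In batch 1 alone the Il1b slope was 0.46, with an interval from -0.0079 to 0.93 that reached above the lowest limit of the other 8 there, 0.87 for Cd14.

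**Figure D2:**
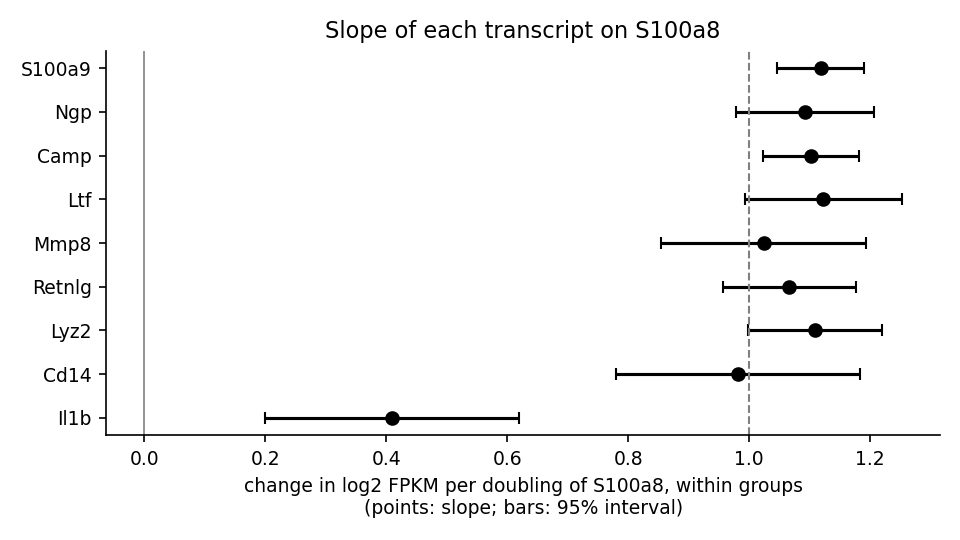
Slope of log2 FPKM on log2 FPKM of S100a8 within groups for the other 9 genes (points, with 95% intervals as bars), over 20 libraries except for Retnlg, where the library listed at 0 was left out (19). A dashed line marks a slope of 1: 8 genes lie at 0.98 to 1.12 and Il1b at 0.41.

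Taken as a ratio to S100a8, the same data show how fixed the mixture was. The log2 ratio to S100a8 had an SD within groups of 0.29 for Retnlg, 0.32 for S100a9 and Camp, 0.41 for Ngp and Lyz2, 0.48 for Ltf, 0.56 for Mmp8 and 0.66 for Cd14. For Il1b it was 1.27, against 1.01 for Il1b itself and 1.80 for S100a8 itself. Naive-Mac replicate 2 decided the order of the first 2 values, since without it the ratio of Il1b to S100a8 had an SD of 0.89 and Il1b itself one of 1.01, and the 8 other ratios then had SDs of 0.17 to 0.61. Il1b ranged from 3.81% to 16.3% of S100a8 in Naive, from 2.27% to 10.8% in Resist and from 0.704% to 3.00% in Resist-Mac. In Naive-Mac it was 0.779% to 2.9% in 4 libraries and 22.8% in replicate 2, the library with least S100a8.

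The mixture itself also shifted between the tables. Ltf had a median of 12.2% of S100a8 in Naive, 13.9% in Resist, 7.16% in Resist-Mac and 2.78% in Naive-Mac, and Ngp of 38.9%, 42.3%, 24.0% and 17.6%. Camp went the other way, at 19.9%, 26.3%, 24.8% and 28.1%. Group, batch and table cannot be told apart in these shifts, and Gapdh, a housekeeping gene, also differed between the tables (means of 705, 498, 5769 and 7484 FPKM in Naive, Resist, Resist-Mac and Naive-Mac).

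Pairs of libraries with like S100a8 levels show what Il1b did at a given level. Naive replicate 5 and Resist replicate 4 had 193 and 191 FPKM of S100a8 and 11.9 and 5.69 FPKM of Il1b. Naive replicate 2 and Resist replicate 3 had 151 and 159 FPKM of S100a8 and 13.6 and 3.61 FPKM of Il1b. Naive replicate 3 and Resist replicate 5, at 73.1 and 72.2 FPKM of S100a8, had 9.45 and 7.78 FPKM of Il1b. Since all Naive libraries lay above all Resist libraries in Il1b, the direction within such pairs was fixed beforehand, and the pairs are a description of the levels only. Across tables, Resist-Mac replicate 3 had 164 FPKM of S100a8 and 4.93 FPKM of Il1b, within the Resist range.

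Straight lines of Il1b on S100a8 in FPKM, fitted to the 5 libraries of each group, gave an Il1b level at an S100a8 of 0 of 8.93 ± 0.89 FPKM in Naive, 2.47 ± 2.18 FPKM in Resist, 1.06 ± 1.22 FPKM in Resist-Mac and 7.79 ± 1.59 FPKM in Naive-Mac (SE, n = 5 libraries each). For every 100 FPKM of S100a8, Il1b was higher by 1.97 FPKM in Naive, 1.64 FPKM in Resist, 0.96 FPKM in Resist-Mac and 0.555 FPKM in Naive-Mac. The lines of both vehicle groups thus met the axis higher than those of both enzalutamide groups, whose values there were about as large as their SEs. The order of Naive over Resist rests on Il1b values known when the members were chosen, so it is a description only. The lowest S100a8 values were 63.0, 22.3, 164 and 33.9 FPKM in Naive, Resist, Resist-Mac and Naive-Mac, so each value at 0 is an extrapolation. With a common slope on the log2 scale, Il1b at equal S100a8 differed by -0.57 ± 0.42 (SE) in Resist-Mac vs. Naive-Mac. It differed by 0.34 ± 0.14 in Naive vs. Naive-Mac, between the vehicle groups, and by 0.71 ± 0.70 in Resist vs. Resist-Mac. Each of these comparisons joins batch with condition. The straight lines were chosen after the values were seen, each rests on 5 libraries, and the vehicle groups belong to different batches.

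**Figure D3:**
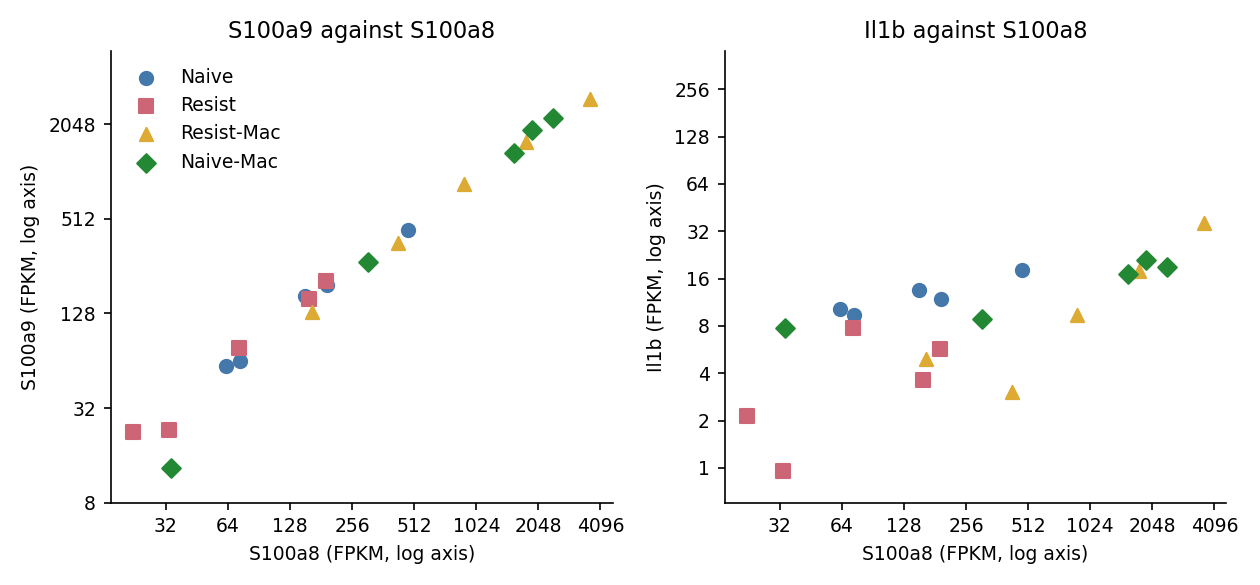
S100a9 (left) and Il1b (right) against S100a8, in FPKM on log axes that span the same number of doublings vertically, 1 point per library and a colour and shape per group. S100a9 follows a single line through all groups except for Naive-Mac replicate 2 somewhat below it, whereas Il1b spreads over a band, with the 5 Naive libraries (9.45 to 18.3 FPKM) above the 5 Resist libraries (0.95 to 7.78 FPKM).

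Ptprc, the gene of the CD45 protein used to remove leukocytes, was low and moved with the granule genes. It read 1.99, 0.6, 0.2, 0.03 and 0.99 FPKM in Naive and 0.08, 0.04, 0.91, 1.28 and 0.4 FPKM in Resist. It read 5.35, 0.43, 0.37, 2.61 and 4.28 FPKM in Resist-Mac and 0.46, 1.84, 1.29 and 0.3 FPKM in Naive-Mac replicates 1, 3, 4 and 5, and was listed at 0 in replicate 2. Its slope on S100a8 was 1.23 ± 0.18 (SE, 19 libraries). The libraries with most Ptprc in Naive (replicate 1), Resist (replicate 4), Resist-Mac (replicate 1) and Naive-Mac (replicate 3) were those with most S100a8.

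Other myeloid markers followed the same course. Of 30 further neutrophil genes, 27 had a mean of at least 1 FPKM, and their deviations had a median r of 0.935 with S100a8, with 25 of the 27 over 0.8, against 1.37% of all genes. Of 24 further monocyte and macrophage genes 8 reached that level, with a median r of 0.867 and 7 over 0.8. Of 12 genes of all leukocytes 10 reached it, with a median r of 0.922 and 9 over 0.8. With Il1b the same lists had median r of 0.795, 0.796 and 0.817, with 13 of 27, 3 of 8 and 8 of 10 genes over 0.8, against 0.749% of all genes. The 6 measured genes of prostate epithelial tumor cells had a median r of 0.249 with S100a8 and 0.272 with Il1b, and none was over 0.8. Averaged over Naive and Resist alone, 13 of the 30 neutrophil, 5 of the 24 monocyte and macrophage and 8 of the 12 leukocyte genes reached 1 FPKM. Others counted here passed through Resist-Mac and Naive-Mac, where mean S100a8 was higher, and were thereby favoured to move with it. The shares over 0.8 are thus a description of the lists, also beside those of all genes. In bulk RNA a larger number of myeloid cells and more RNA per myeloid cell cannot be told apart.

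The 5 genes whose deviations were most like those of S100a8 were Chil3 (r = 0.995), a chitinase-like protein of myeloid cells, then Camp, S100a9, Retnlg and Lyz2 (0.994 to 0.989). Among the genes most like Il1b were Gmfg (r = 0.890), Igfbp4 (0.873), Samsn1 (0.861) and C5ar1 (0.860), the receptor for the complement fragment C5a. All are over 20 libraries, and none of the genes named for Il1b is among those named for S100a8. Several of these genes had means near 1 FPKM (1.27 FPKM for C5ar1).

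The summed level of these lists is given as the range over libraries. The 30 neutrophil genes summed to 56.5 to 219 FPKM in Naive, 39.4 to 162 FPKM in Resist, 108 to 1290.1 FPKM in Resist-Mac and 35.6 to 966 FPKM in Naive-Mac. The monocyte and macrophage genes summed to 5.49 to 33.4, 5.75 to 28.5, 13.3 to 227 and 3.95 to 147 FPKM in the same order. The genes of all leukocytes summed to 27.7 to 91.2, 20.6 to 58.5, 36.4 to 367 and 50.7 to 302 FPKM. No gene of these 3 lists was at 0 in every library of a group. The B lineage genes summed to at most 8.47 FPKM and the T and NK cell genes to at most 8.34 FPKM in any library, with Ms4a1 and Cd3g at 0 throughout Naive and Cd3g and Klrb1c at 0 throughout Naive-Mac. The erythroid genes, led by Hba-a1, summed to 54.3 to 110 FPKM in Naive, 109 to 203 in Resist, 131 to 311 in Resist-Mac and 215 to 955 in Naive-Mac. The osteoblast, stromal and endothelial genes summed to at most 25.0 FPKM, with Bglap at 0 throughout Naive and Naive-Mac. The epithelial genes summed to between 570.2 and 1193 FPKM in every library, with Krt18 and Cdh1 listed at 0 in all Naive-Mac libraries.

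In Resist vs. Naive, the comparison behind the choice of the list, the difference of mean log2(FPKM + 1) was negative for all 10 genes. It was -1.60 ± 0.34 (limma SE, n = 5 and 5) for Il1b and between -0.43 (Mmp8) and -1.20 (Lyz2) for the other 9, with SEs of 0.42 to 0.75 and with overlapping groups. Since these values were known when the members were chosen, nothing is read from the 1 of the 10 (Il1b) that met the thresholds applied to all genes, an adjusted p under 0.05 and a fold over 1.5. Of all genes, 6.35% of the 10119 tested met them in either direction, 5.25% as higher and 1.11% as lower in Resist, and 12.8% had groups that did not overlap. The median difference of the 10 was -1.01, against 0.03 over all genes. The part that myeloid RNA had in the Il1b difference was not tested, since Il1b and S100a8 were both lower in Resist in these means.

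The other lists in Resist vs. Naive were put through the same limma fit. These lists were chosen with earlier results of these data known, so their calls are a description. Of the 30 further neutrophil genes 13 passed the filter (1 FPKM or more on average across both groups) and 0 were called (1 at an unadjusted p under 0.05, 0 by the noise-distribution method). Their median difference was -0.38. Of 8 tested leukocyte genes Cd52, a small surface glycoprotein, was called lower (21.4 to 10.8 FPKM in means, log2 difference -0.89 ± 0.20, limma adjusted p = 0.0112). Of 5 tested monocyte and macrophage genes Mpeg1, a pore-forming protein of phagocytes, was called higher (1.16 to 2.5 FPKM, log2 difference 0.68 ± 0.18, limma adjusted p = 0.0225), but this call was lost in 9 of the 19 alternatives, among them quantile normalization and leaving out Resist replicate 1, 3 or 4 or Naive replicate 2 or 4.

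Called genes of the IL-1 pathway other than Il1b were higher in Resist, as were 82.6% of all genes called in this comparison. Of 15 IL-1 family ligands, receptors and processing genes 5 were tested and 3 were called, where 5.25% of all genes were called higher. Since this list too was chosen with earlier results known, the count and the p-values below describe it and support nothing further. Il33, an alarmin of the family, had means of 5.45 FPKM in Resist and 0.726 FPKM in Naive (log2 difference 1.86 ± 0.27, limma adjusted p = 0.000936). It passed the filter of 1 FPKM through Resist, the group where it was high, and its call was lost with a filter of 5 FPKM. Il1r1, the signalling receptor for IL-1, had means of 10.2 and 5.64 FPKM (0.74 ± 0.12, limma adjusted p = 0.00159), and Il18r1, a receptor for IL-18, of 79.7 and 46.2 FPKM (0.77 ± 0.10, limma adjusted p = 0.000507). Of 11 tested genes of CD14, Toll-like receptor and IL-1 signalling, Lbp, which hands lipopolysaccharide to CD14, was called higher (30.1 and 11.7 FPKM, 1.28 ± 0.23, limma adjusted p = 0.00295). Of 12 tested NF-kB response genes 0 were called by limma, 3 had an unadjusted p under 0.05 and 2 were called by the noise-distribution method. Across the 20 libraries the measured genes of these 3 lists (5, 11 and 10) had a median r with S100a8 of -0.02, 0.02 and 0.40, and of these Tlr2 (0.82) alone was over 0.8.

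In Resist vs. Resist-Mac, which compares enzalutamide-treated cells without and with phagocyte depletion, 9 of the 10 genes were called lower in Resist, where 21.7% of the 10049 genes tested were called, 9.71% as higher and 12% as lower in Resist. S100a8 had means of 95.6 ± 75.8 FPKM in Resist and 1379 ± 1402 FPKM in Resist-Mac (SD, n = 5 each), and Lyz2 of 21.1 ± 19.3 and 304 ± 308 FPKM. The log2 differences were -3.56 ± 0.79 for S100a8 (limma SE, adjusted p = 0.00344), -3.69 ± 0.86 for Camp (limma adjusted p = 0.00473) and -3.75 ± 0.91 for Lyz2 (limma adjusted p = 0.00563). The other 6 called ran from -3.40 for S100a9 to -1.86 for Mmp8, and Cd14 passed barely (-2.11 ± 0.80, limma adjusted p = 0.048). Il1b was not called (-1.34 ± 0.56, limma adjusted p = 0.071), with means of 4.03 ± 2.74 and 14.3 ± 13.6 FPKM. The median difference of the 10 was -2.91, against -0.02 over all genes.

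These differences were carried by part of the libraries. All 10 genes overlapped between the groups, where 29.7% of all genes did not, and Resist-Mac replicate 3 lay within the Resist range for all 10. Exact two-sided permutation tests of the mean FPKM gave p from 0.0159 (S100a8) to 0.103 (Cd14), and none passed after adjustment over 30 tests (lowest adjusted exact p = 0.179). Leaving out Resist replicate 1, Resist replicate 2, Resist-Mac replicate 1 or Resist-Mac replicate 5 left 5 genes called each time (S100a8, S100a9, Camp, Retnlg and Lyz2), and correcting for the length and GC content of transcripts left 4 (S100a8, S100a9, Camp and Lyz2). The direction of all 10 was kept in each of the 19 alternative settings. Batch, table and clodronate treatment cannot be told apart here.

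Of the further neutrophil genes 17 of the 27 tested were called lower in Resist and 0 higher, where 12% of all genes were called lower. Only 13 of the 30 passed the filter in Resist vs. Naive, and genes that passed it here through Resist-Mac alone had to differ in this direction, so the count supports nothing about the 10. They were led by Chil3 (9.24 and 108 FPKM in means) and Wfdc21 (2.46 and 28.3 FPKM). With single libraries left out the count was between 7 (without Resist-Mac replicate 1) and 26 (without Resist-Mac replicate 3), and it was 3 with the length and GC correction. Of monocyte and macrophage genes 4 of 8 were called lower, among them Tyrobp and Ly6c2, and of leukocyte genes 5 of 10, among them Coro1a and Spi1. No IL-1 family gene (0 of 5) and no gene of CD14, Toll-like receptor and IL-1 signalling (0 of 11) was called by limma. At an unadjusted p under 0.05 these were 1 and 5, and by the noise-distribution method 0 and 0.

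**Figure D4:**
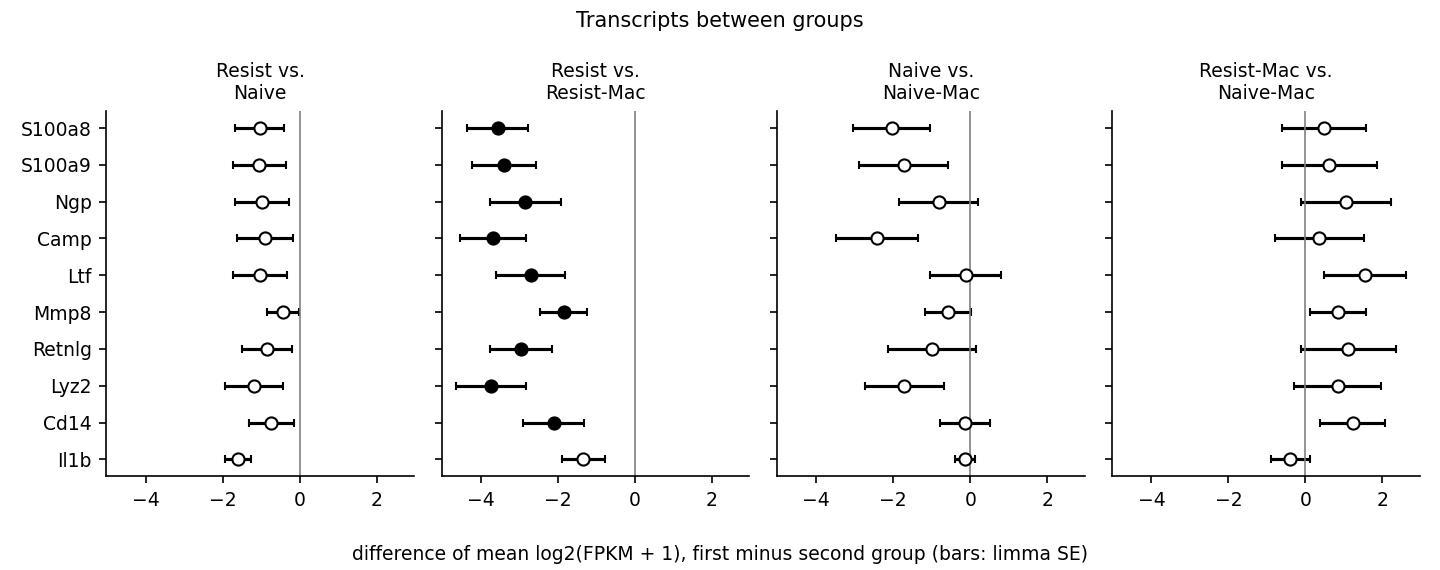
Difference of mean log2(FPKM + 1), first minus second group, for the 10 genes in the 4 comparisons (points, with limma SEs as bars). Filled points were called at an adjusted p under 0.05 and a fold over 1.5: 9 of 10 in Resist vs. Resist-Mac and none in both comparisons with Naive-Mac, while the points of Resist vs. Naive are all open because that comparison is a description.

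In Naive vs. Naive-Mac, vehicle-treated cells without and with phagocyte depletion, 0 of the 10 genes were called by limma, where 59.7% of 9837 genes passed (37.5% as higher and 22.1% as lower in Naive) and 66% had groups that did not overlap. At an unadjusted p under 0.05 the count was 1, and by the noise-distribution method 7. The differences ran from -2.42 ± 1.07 for Camp (limma adjusted p = 0.0528) and -2.04 ± 1.00 for S100a8 (limma adjusted p = 0.0773) to -0.12 for Ltf, and Il1b was at -0.14 ± 0.26 (limma adjusted p = 0.643). Mean S100a8 was 192 ± 170 FPKM in Naive and 1249 ± 1035 FPKM in Naive-Mac (SD, n = 5 each), and mean Il1b 12.7 ± 3.5 and 14.7 ± 6.03 FPKM. Naive-Mac replicate 2, the lowest Naive-Mac library for all 10 genes, decided the count, and without it 6 genes were called. Without Naive replicate 1 it was 2. The sign of Il1b turned with the length and GC correction (0.85, limma adjusted p = 0.00688) and without Naive-Mac replicate 1. That correction also turned the signs of S100a9, Ngp, Retnlg and Cd14, to at most 0.59 (Retnlg). Ltf and Cd14 changed sign in 6 of the 19 alternative settings each. S100a8, Camp, Mmp8 and Lyz2 kept their sign in every setting, although S100a8 came as close to 0 as -0.24. Of the further neutrophil genes 10 of the 22 tested were called lower in Naive, with 20 called without Naive-Mac replicate 2, 3 without Naive-Mac replicate 3 or 4 and 2 with the length and GC correction. Of the leukocyte genes 2 of 9 were called lower in Naive, Arhgdib and Cd52.

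In Resist-Mac vs. Naive-Mac, enzalutamide against vehicle with phagocytes depleted in both, 0 of the 10 genes were called by limma, where 46.2% of 9760 genes passed (37.2% as higher and 9% as lower in Resist-Mac) and 47.8% had groups that did not overlap. No member had an unadjusted p under 0.05 and the noise-distribution method called 3. S100a8 differed by 0.48 ± 1.09 and Il1b by -0.39 ± 0.51 on the log2 scale (limma adjusted p = 0.72 and 0.516), with Il1b means of 14.3 and 14.7 FPKM. The largest difference was that of Ltf (1.55 ± 1.06, limma adjusted p = 0.218). Of the further neutrophil genes 1 of the 28 tested was called, Csf3r, the receptor for the neutrophil growth factor G-CSF, with means of 2.37 FPKM in Resist-Mac and 0.372 FPKM in Naive-Mac. The SE of S100a8 in this comparison spans more than a doubling, so a difference of that size was not detectable in these libraries. These comparisons share their groups, and the 2 Naive-Mac comparisons again join batch with condition.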

How the data were processed

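The authors sequenced poly(A) RNA of sorted tumor cells as paired reads of 150 bases on a BGISEQ-500. Per the labels, the submitters' processing notes name Bowtie2 and build mm9, and the counter is not given in the sources used here. The authors deposited 3 tables by Entrez identifier: log2(FPKM + 1) for Naive and Resist, and FPKM for Resist-Mac and for Naive-Mac. The log2 values were turned back to FPKM, and 752 BGI_novel rows of the first table were left out, as in the study. All value columns were used (0 were not). Symbols came from RefSeq (GRCm38.p6), which named 16613 of 16733, 14053 of 14077 and 15827 of 15867 identifiers.

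The main test was limma 3.58.1 (R 4.3.3) with a trend, on log2(FPKM + 1), for genes whose mean over the compared libraries reached 1 FPKM. Calls needed a fold over 1.5 and a p under 0.05 after Benjamini-Hochberg adjustment. A fold on this scale understates changes of low genes. The study's tool, NOISeq, was not at hand, and a noise-distribution probability over 0.8 written after its description is an alternative. Fits were tested on simulated data. Member tests across batches were also exact permutation tests (Python 3.11.15, scipy 1.17.1). Differences in slope are given with intervals only.

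The 10 members and the gene lists were chosen with earlier results of these data known. Named genes were the members, Ptprc, up to 4 called genes of each list with the largest change, and the 5 genes most like S100a8 and Il1b, of which 1 is not reported here. Chromosome positions are from GRCm38.p6. No identical libraries were found (highest r between 2 libraries 0.993). Labels do not say whether pools of a group were independent beyond their 3 mice, so p-values measure the spread between these pools. The authors' column names for Resist-Mac and Naive-Mac carry number codes of unstated meaning, which the permutations within groups did not use. S100a8 was 429 and 164 FPKM in Resist-Mac replicates 2 and 3, which share a code, and 889 and 1776 FPKM in replicates 4 and 5, which share another. In Naive-Mac it was 1914 and 1568 FPKM in replicates 1 and 4, which share a code. Replicates 2, 3 and 5 there, at 33.9, 2423 and 307 FPKM, each have a code of their own. The permutations treated the pools of a group as exchangeable. A grouping of pools below the batch was not tested.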

Additional observations from a re-analysis of the deposited data

How the results depend on the processing

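The r of Il1b with S100a8 across libraries was 0.731 to 0.808 with single libraries left out (permutation p 7e-05 to 0.00048) and 0.688 to 0.939 under the other alternatives, all with an unadjusted permutation p under 0.05. The highest, 0.939, was that of FPKM without a log (permutation p = 9e-05). The lowest, batch 1 alone, had an adjusted permutation p of 0.0516 and fell to 0.605, with no p computed, without Naive replicate 1 and Resist replicate 2. With whole groups left out r was 0.798 without the Naive-Mac and 0.748 without the Resist-Mac libraries (both added after seeing the data). Counts moved more. In Resist vs. Naive 643 genes were called, 392 with a filter of 5 FPKM, 360 by the noise-distribution method and 527 to 840 with single libraries left out (840 without Resist replicate 5). Members past the thresholds there, a description only, were 1 and, by the noise-distribution method, 8. In Resist vs. Resist-Mac 2181 genes were called, 879 with the length and GC correction (added after seeing the data), 1079 by the noise-distribution method and 2006 to 2450 with single libraries left out. Members called there were 9, 5 without a filter, 4 with the length and GC correction and 5 to 10 with single libraries left out. In Naive vs. Naive-Mac 5868 genes were called, 3561 with the length and GC correction, 3627 by the noise-distribution method and 5699 to 5990 with single libraries left out. Members called were 0 there, 1 each with a filter of 5 FPKM, median-ratio scaling, the length and GC correction, the replicate block and all 4 groups in one fit, 7 by the noise-distribution method and 0 to 6 with single libraries left out. In Resist-Mac vs. Naive-Mac 4509 genes were called, 2560 with the length and GC correction, 1455 by the noise-distribution method and 4209 to 4865 with single libraries left out, and members called were 0 and, by the noise-distribution method, 3. The Il1b difference in Naive vs. Naive-Mac turned from -0.14 to 0.85 with the length and GC correction, and those of S100a9, Ngp, Retnlg and Cd14 changed sign with it too. The cause of these shifts was not tested.

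Scaling moved the share of called genes that were higher in the first group from 82.6% to 70.1% (quantile) in Resist vs. Naive, from 44.8% to 55.0% (quantile) in Resist vs. Resist-Mac, from 62.9% to 48.2% (median-ratio) in Naive vs. Naive-Mac and from 80.5% to 48.4% (median-ratio) in Resist-Mac vs. Naive-Mac. Median-ratio scaling moved the median of all genes from 0.23 to -0.05 and from 0.34 to -0.05 in the last 2. Same-numbered libraries did not deviate together (0, 2, 1 and 3 of 5 pairs with r over 0.1), so the numbers do not pair the samples. A replicate block gave 624, 2228, 5888 and 4534 called genes in the 4 comparisons. Depth is unknown, so the counting error of low values such as those of Ptprc and Mmp8 cannot be given.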

Other observations

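Lcn2, the gene of the granule protein lipocalin-2, which epithelial cells also make, was singled out after its values were seen. It read 58.9, 45.4, 34.4, 34.5 and 45.5 FPKM in Naive, 36.2, 21.7, 55.7, 60.8 and 52.0 FPKM in Resist, 336, 50.9, 58.3, 163 and 257 FPKM in Resist-Mac and 147, 19.1, 219.6, 181 and 42.5 FPKM in Naive-Mac. Its slope on S100a8 within groups was 0.54 ± 0.05 (SE, 95% interval 0.43 to 0.65), and in batch 1 alone 0.35 (0.22 to 0.49). That interval over all libraries lay below the lowest limit of the 8 members other than Il1b (0.78) and overlapped that of Il1b.

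In the comparisons with Naive-Mac 6 of 10 NF-kB response genes were called in Naive vs. Naive-Mac, where 59.7% of all genes were, and 6 of 11 in Resist-Mac vs. Naive-Mac, where 46.2% of all genes were, so both counts are near the background. All of these were lower in Naive-Mac, as were 62.9% and 80.5% of all genes called. With median-ratio or quantile scaling or the length and GC correction these counts were 4 to 5 and 3 to 5, and quantile scaling called 1 gene the other way in Resist-Mac vs. Naive-Mac. Tnfaip3, an inhibitor induced by NF-kB, had means of 46.8 FPKM in Naive, 59.5 FPKM in Resist-Mac and 11.8 FPKM in Naive-Mac, and Nfkb1 of 36.0, 31.6 and 9.93 FPKM. These values set batch 3 and its table apart as well as the condition. In the same comparisons the monocyte and macrophage list had 1 gene called in each (Tyrobp lower in Naive, Cd68 higher in Resist-Mac).

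In 44 checks of the 4 groups of 5 libraries for a library far from the others, 0 passed Dixon's criterion, where chance gives about 2.2. The checks share libraries and rest on 5 each, so they do not clear Naive-Mac replicate 2, which decided several results above.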
